A study of Mus musculus with 6 samples.

Results

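The CC chemokine ligands made by myeloid cells were examined in bone marrow-derived dendritic cells (BMDCs) of WT and Nfkb2-/- mice. The 10 genes Ccl2, Ccl3, Ccl4, Ccl5, Ccl6, Ccl7, Ccl9, Ccl17, Ccl22 and Ccl24 were chosen by name, with earlier results of these data known. Each had enough counts to enter the test, so they are 10 of the 21849 named genes tested and of the 56748 gene IDs in the files. Bone marrow of C57BL/6 WT mice, or of mice lacking Nfkb2 in every cell, was grown for 5 days with 20 ng/mL GM-CSF and then for 4 days with GM-CSF and 10 ng/mL IL-4, and no stimulus followed. Nfkb2 encodes p100, the precursor of the p52 subunit of the noncanonical NF-kB pathway. Each genotype had 3 independent biological replicates, and polyadenylated RNA was sequenced to a depth of 29863927 to 55623068 counts per library. P-values therefore measure the spread between these cultures. The age and sex of the mice, and whether any 2 cultures shared an animal, are not given in the sources used here.

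CC chemokines are small secreted proteins that guide leukocytes along concentration gradients by binding G protein-coupled receptors. Ccl17 and Ccl22 act on Ccr4 of helper and regulatory T cells and are typical products of dendritic cells, above all of cells exposed to IL-4 through Stat6. Ccl2 and Ccl7 recruit monocytes through Ccr2, Ccl3, Ccl4 and Ccl5 are inflammatory chemokines that attract T cells and myeloid cells, Ccl6 and Ccl9 act through Ccr1, and Ccl24 recruits eosinophils through Ccr3.

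Ccl17 and Ccl22 are neighbours among the 10 ligands, 58.8 kb apart on the plus strand of chromosome 8. Genes between them were not looked for. Of the 4 ratios between neighbouring ligands theirs differed most between the genotypes. Their promoters are therefore shown, from 250 bases before to 50 bases after the RefSeq start (GRCm38.p6), at chr8:94810203-94810502 for Ccl17 and chr8:94745434-94745733 for Ccl22. Capitals mark matches to TTCNNNNGAA or TTCNNNGAA, the letters of STAT sites, or to the κB consensus, each searched on both strands.
Ccl17: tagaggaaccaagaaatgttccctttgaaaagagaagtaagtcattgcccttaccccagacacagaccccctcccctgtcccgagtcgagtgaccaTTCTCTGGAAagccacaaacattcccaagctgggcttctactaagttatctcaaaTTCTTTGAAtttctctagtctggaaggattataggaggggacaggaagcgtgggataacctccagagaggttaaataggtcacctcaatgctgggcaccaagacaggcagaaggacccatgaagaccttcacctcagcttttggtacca
Ccl22: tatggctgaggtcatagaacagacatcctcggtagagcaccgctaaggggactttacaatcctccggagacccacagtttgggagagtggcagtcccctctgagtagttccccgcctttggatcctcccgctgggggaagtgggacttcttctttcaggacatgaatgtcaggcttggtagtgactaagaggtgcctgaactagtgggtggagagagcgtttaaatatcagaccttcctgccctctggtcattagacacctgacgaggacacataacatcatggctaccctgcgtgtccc
The Ccl17 window held TTCTCTGGAA, which begins 154 bases before the start, and TTCTTTGAA, which begins 99 bases before it. The Ccl22 window held no match to any of the 3 motifs. The GENCODE M21 gene model of Ccl22 starts at chr8:94745590, before its RefSeq start, so fewer bases before that model were searched. For Ccl17 the M21 model starts at the RefSeq start, chr8:94810453. Among 32851 RefSeq promoters of the same length, 6.95% held TTCNNNNGAA, 8.3% held TTCNNNGAA and 8.46% held the κB consensus. RefSeq windows were at hand for 5 of the 10 ligands. Those of Ccl3 and Ccl6 held no match, and that of Ccl9 held GGAAAGCCCC, a match to the κB consensus on the reverse strand that begins 35 bases before the start. These matches describe letters in a window and are not sites of binding.

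Nfkb2 mRNA itself measured 215, 154 and 354 CPM (read counts scaled to a common library size, with TMM normalization) across WT replicates 1, 2 and 3 but 44.8, 32.3 and 32.6 CPM across the Nfkb2-/- cultures. The genotypes did not overlap (log2 fold change -2.72, SE 0.33, adjusted p = 0.0307 in the quasi-likelihood test of edgeR, with p-values adjusted over all genes tested by Benjamini-Hochberg). A gene was called different at an adjusted p under 0.05 and a fold change over 1.2, and fold changes are Nfkb2-/- over WT. Nfkb2-/- replicate 1 stood apart with 47952 gene IDs at 1 count or more, against 27692 to 33841 in the other 5 libraries. WT replicate 3 stood apart in macrophage markers, whose summed level was 155 CPM there, 880 and 1025 CPM in the other WT libraries and 606 to 749 CPM across the Nfkb2-/- cultures.

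Among the ligands of Ccr4, Ccl17 rose and Ccl22 did not pass the test. Ccl17 (ENSMUSG00000031780) measured 161, 360 and 431 CPM in WT replicates 1, 2 and 3, and 2381, 2468 and 2353 CPM in Nfkb2-/- replicates 1, 2 and 3. The lowest Nfkb2-/- library was thus far above the highest WT library, and the Nfkb2-/- values lay within a factor of 1.05 of each other. The WT mean was 317 ± 140 CPM (SD, n = 3) and the Nfkb2-/- mean 2401 ± 60.1 CPM (SD, n = 3). Their log2 fold change was 2.92 (SE 0.37, 95% interval 2.06 to 3.78, adjusted p = 0.0307 in edgeR's quasi-likelihood test). This 7.57-fold increase moved Ccl17 from rank 28 to rank 6 of the 21849 genes by mean CPM per kb of exon. The adjusted p of edgeR missed the threshold without WT replicate 1 (0.125) and without Nfkb2-/- replicate 1 (0.0876), 2 (0.163) or 3 (0.156). The log2 fold change lay between 2.60 and 3.21 over all 15 alternative fits.

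Ccl22 (ENSMUSG00000031779) was the most abundant of the ligands in WT BMDCs per kb of exon. It measured 7774, 5881 and 10710 CPM across the WT cultures against 6062, 5817 and 5348 CPM across the Nfkb2-/- cultures. The genotypes overlapped, since Nfkb2-/- replicate 1 lay above WT replicate 2. The log2 fold change was -0.50 (SE 0.27, 95% interval -1.13 to 0.13, adjusted p = 0.404 in edgeR). Without WT replicate 3, in which Ccl22 was highest, it was -0.25 (adjusted p = 0.608 in edgeR).

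**Figure D1:**
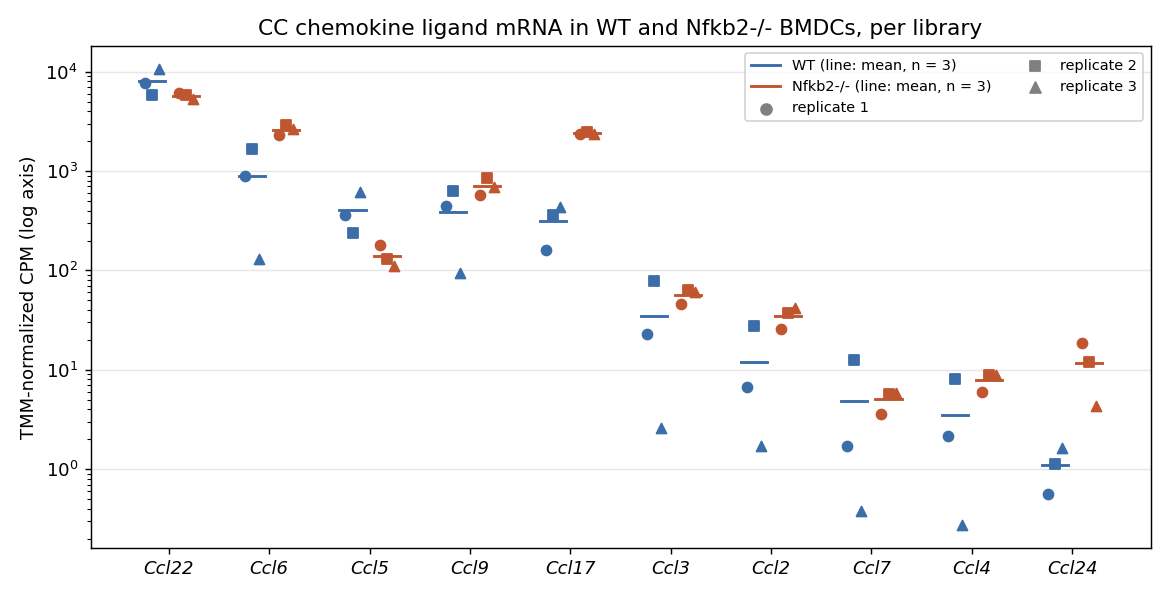
TMM-normalized CPM (log axis) of the 10 CC ligand genes, ordered by WT mean, in 3 WT (blue) and 3 Nfkb2-/- (orange) libraries. Symbols mark the replicate number and lines the mean. The 3 Nfkb2-/- values of Ccl17 sit together between 2353 and 2468 CPM, all above WT, and WT replicate 3 (blue triangle) is the lowest library for Ccl2, Ccl3, Ccl4, Ccl6, Ccl7 and Ccl9.

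Ccl24 (ENSMUSG00000004814), or eotaxin-2, had the largest estimated difference of the 10 at a low level. It measured 0.568, 1.14 and 1.61 CPM in WT replicates 1, 2 and 3, from 24, 37 and 47 counts. In the Nfkb2-/- libraries it measured 18.6, 11.9 and 4.33 CPM, from 630, 362 and 232 counts. The genotypes did not overlap, but the Nfkb2-/- libraries spread over a factor of 4.29, and replicate 1, the library with the most gene IDs detected, was the highest. The log2 fold change was 3.40 (SE 0.61, 95% interval 1.97 to 4.83), and the adjusted p of 0.0541 in edgeR's quasi-likelihood test missed the threshold. Without WT replicate 3 and Nfkb2-/- replicate 1, an alternative chosen after seeing the data, it was 3.25 (adjusted p = 0.0490 in edgeR), and in DESeq2 it was 3.37 (adjusted p = 9.81e-07).

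Ccl5 (ENSMUSG00000035042), or RANTES, which attracts T cells and NK cells, was lower in each Nfkb2-/- library than in any WT library without passing the test. It measured 361, 237 and 616 CPM across the WT cultures against 182, 129 and 111 CPM across the Nfkb2-/- cultures. The log2 fold change was -1.52 (SE 0.37, 95% interval -2.38 to -0.66, adjusted p = 0.101 in edgeR). WT replicate 3 was the highest of the 6 libraries. Without that library the log2 fold change was -1.09 (adjusted p = 0.123 in edgeR), and without WT replicate 2, the lowest of WT, it was -1.83 (adjusted p = 0.0264 in edgeR). DESeq2 gave -1.55 (adjusted p = 0.00118).

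Of Ccl6, Ccl9, Ccl3 and Ccl4 on chromosome 11, none passed the test, and WT replicate 3 was the lowest library for each. Ccl6 (ENSMUSG00000018927), a mouse chemokine of myeloid cells, measured 897, 1654 and 131 CPM across the WT cultures against 2290, 2906 and 2653 CPM across the Nfkb2-/- cultures. The Nfkb2-/- values lay above all WT values, while the WT libraries differed among themselves by a factor of 12.6. The log2 fold change was 1.55 (SE 0.74, 95% interval -0.19 to 3.28, adjusted p = 0.349 in edgeR), and 1.04 without WT replicate 3 (adjusted p = 0.155 in edgeR). Ccl9 (ENSMUSG00000019122), the neighbour of Ccl6 and a chemokine of macrophages and osteoclasts, measured 448, 623 and 94.1 CPM in WT and 572, 844 and 693 CPM in Nfkb2-/- BMDCs. Its genotypes overlapped, with a log2 fold change of 0.86 (SE 0.58, adjusted p = 0.505 in edgeR) that became 0.40 without WT replicate 3.

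Ccl3 and Ccl4, the inflammatory proteins MIP-1α and MIP-1β, were expressed at lower levels. Ccl3 (ENSMUSG00000000982) measured 22.9, 78.1 and 2.61 CPM across the WT cultures against 46.1, 64.0 and 60.3 CPM across the Nfkb2-/- cultures. Ccl4 (ENSMUSG00000018930) measured 2.18, 8.11 and 0.275 CPM in WT and 5.93, 8.85 and 8.89 CPM in Nfkb2-/- BMDCs, where the WT replicate 3 value rests on 8 counts. WT replicate 2 lay above the Nfkb2-/- values for Ccl3 and among them for Ccl4, and the WT libraries spanned a factor of 29.9 for Ccl3 and 29.5 for Ccl4. The log2 fold changes were 0.72 (SE 0.91, adjusted p = 0.728 in edgeR) for Ccl3 and 1.16 (SE 0.88, adjusted p = 0.545 in edgeR) for Ccl4. Without WT replicate 2 these estimates were 2.12 and 2.62, and without WT replicate 3 they were 0.18 and 0.63.

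The ligands of Ccr2 followed the same order of WT libraries. Ccl2 (ENSMUSG00000035385), or MCP-1, measured 6.68, 27.7 and 1.72 CPM in WT replicates 1, 2 and 3 and 25.8, 37.0 and 42.2 CPM across the Nfkb2-/- cultures. WT replicate 2 lay above Nfkb2-/- replicate 1, so the genotypes overlapped (log2 fold change 1.54, SE 0.83, adjusted p = 0.405 in edgeR). Without WT replicate 2 the log2 fold change was 3.02 (adjusted p = 0.0451 in edgeR), and without WT replicate 3 it was 1.03. Ccl7 (ENSMUSG00000035373), or MCP-3, measured 1.71, 12.5 and 0.378 CPM in WT and 3.6, 5.73 and 5.88 CPM in Nfkb2-/- BMDCs, with 11 counts behind the lowest value. Its estimate was near 0 (log2 fold change 0.06, SE 0.99, 95% interval -2.27 to 2.39, adjusted p = 0.982 in edgeR), and its sign depended on the WT library left out, from -0.47 without replicate 3 to 2.23 without replicate 2.

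**Figure D2:**
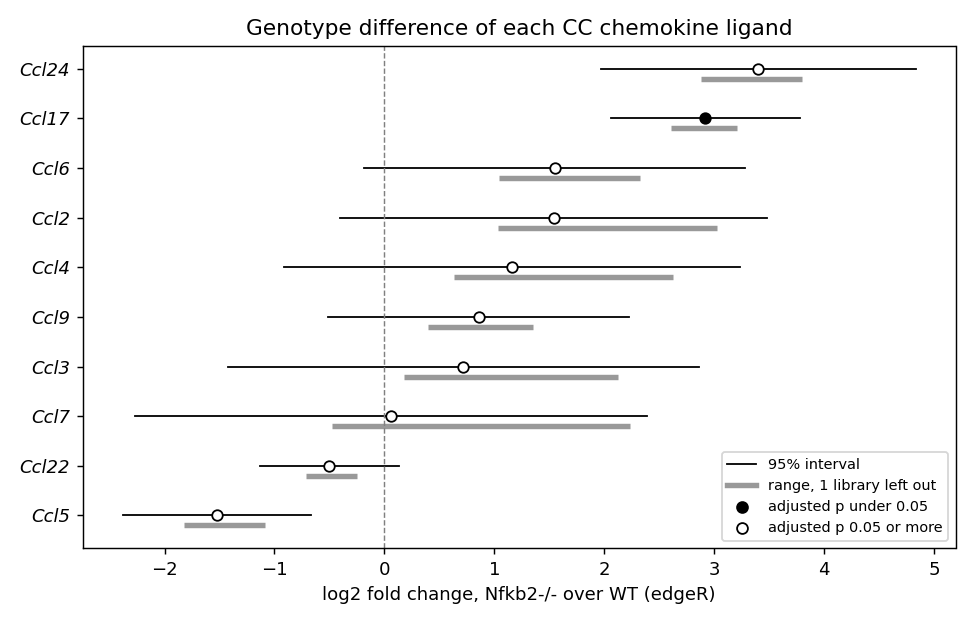
Log2 fold change, Nfkb2-/- over WT, of the 10 CC ligand genes from edgeR (circles), with its 95% interval (thin lines) and the range when each of the 6 libraries is left out in turn (grey bars). Ccl17 is the filled circle, at 2.92 with an adjusted p of 0.0307, and the bars of Ccl2, Ccl3, Ccl4 and Ccl7 are the longest.

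In all, 1 of the 10 ligands was called, and it was higher in Nfkb2-/- BMDCs. Over all genes tested, 1.14% were called, 0.453% higher and 0.682% lower in Nfkb2-/- BMDCs. The estimate was above 0 for 8 of the 10 ligands and for 55.7% of all genes, with a median log2 fold change of 1.01 for the ligands and 0.08 over all 21849 genes. This median of the ligands rested on single WT libraries, since it was 0.51 without WT replicate 3, with 7 of the 10 above 0, and 2.28 without WT replicate 2. The genotypes did not overlap for 4 ligands, Ccl17, Ccl24 and Ccl6 on the higher side and Ccl5 on the lower side, and did not overlap for 24.7% of all genes tested. An unadjusted p under 0.05 in edgeR was obtained for 3 ligands, Ccl17, Ccl24 and Ccl5, and for 17.1% of all genes tested, 3730 in number. DESeq2 called 3 of the ligands and 8.6% of all genes, and limma voom 1 of the ligands and 2.23% of all genes. The ligands were chosen with earlier results of these data known, so these shares describe the list and are not a test of it.

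For 9 of the 10 ligands, all but Ccl24, the highest WT library exceeded the lowest by a larger factor than in Nfkb2-/- BMDCs. The ligands fell into groups, each with its own order of the WT libraries. Ccl2, Ccl3, Ccl4, Ccl6, Ccl7 and Ccl9 were highest in WT replicate 2 and lowest in replicate 3. WT replicate 2 exceeded replicate 3 by a factor of 6.62 for Ccl9, 12.6 for Ccl6, 16.1 for Ccl2 and 33.2 for Ccl7. Ccl5 and Ccl22 had the opposite order, with replicate 3 above replicate 2 by factors of 2.60 and 1.82. Ccl17 and Ccl24 were highest in replicate 3 and lowest in replicate 1. Among all genes tested, 26.2% had the first of these orders, 23.8% the second and 13.5% the third, so each order was a common one in these libraries. In the Nfkb2-/- libraries the highest value exceeded the lowest by at most 1.64-fold for 9 of the 10 ligands, Ccl24 being the exception.

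Marker genes of other cells moved with these orders. Of the 14 macrophage markers, 13 had enough counts, and among the WT libraries all 13 were lowest in replicate 3, such as C1qb, a complement subunit, at 163, 214 and 22.8 CPM in WT replicates 1, 2 and 3 and 115, 106 and 148 CPM across the Nfkb2-/- cultures. So were 8 of 9 tested neutrophil, 5 of 7 monocyte, 5 of 7 mast cell and basophil, 4 of 6 eosinophil and 2 of 10 dendritic cell markers. Among all genes tested, the orders with replicate 3 lowest were held by 13.9% and 26.2%, and those with it highest by 23.8% and 13.5%. Vsig4, a marker of tissue macrophages, had no count in WT and at most 0.0658 CPM in Nfkb2-/- libraries, and was named for that after its values were seen. Among the WT libraries, all 15 markers of mature dendritic cells were highest in replicate 3, with summed levels of 19385, 11935 and 28231 CPM in WT and 11055 to 11828 CPM across the Nfkb2-/- cultures. Of these 15, 13 had estimates below 0, 9 were lower in Nfkb2-/- BMDCs without overlap and 1 higher, 12 had an unadjusted p under 0.05 in edgeR and 1 was called. Among all genes tested, 24.7% did not overlap, 17.1% had an unadjusted p under 0.05 in edgeR and 1.14% were called. The highest of these per kb, Tmem123, measured 10900, 5685 and 15660 CPM in WT and 5648 to 6103 CPM in Nfkb2-/- BMDCs (log2 fold change -0.88, adjusted p = 0.283 in edgeR). Their part in the differences of the ligands was not tested, and in RNA from whole cultures fewer cells of a type and less RNA per cell cannot be told apart. Ccl17 was 431 CPM in WT replicate 3, its highest WT library, and its log2 fold change was 3.21 without that library (adjusted p = 0.0293 in edgeR).

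**Figure D3:**
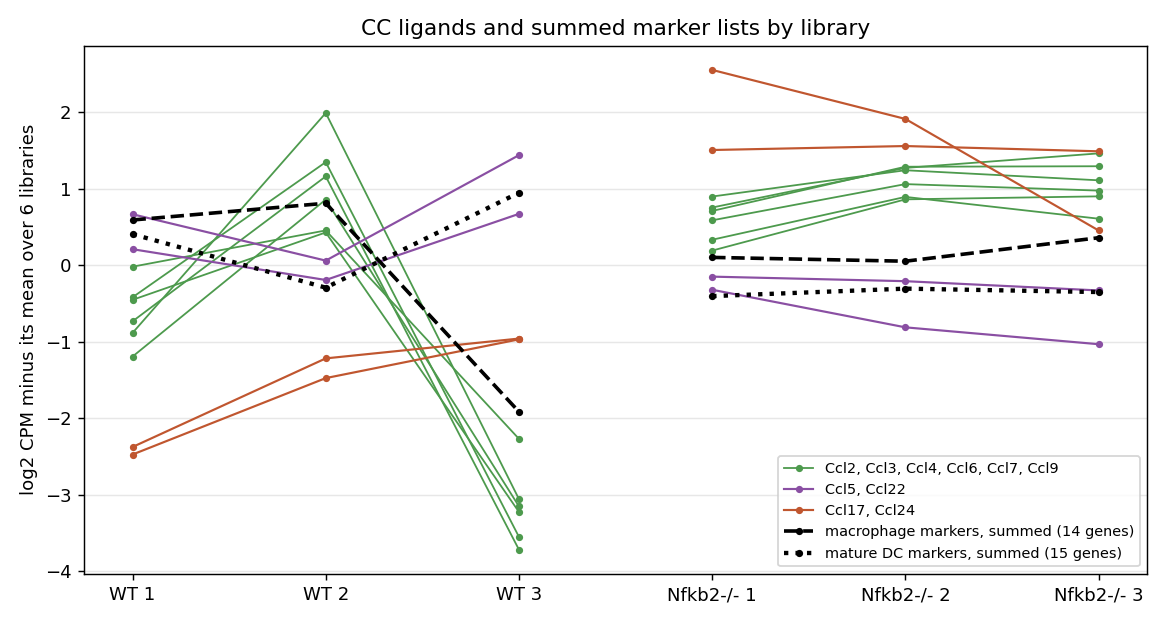
Log2 CPM of the CC ligands and of the summed macrophage and mature dendritic cell (DC) markers in each library, as the difference from their own mean over the 6 libraries. Green lines (Ccl2, Ccl3, Ccl4, Ccl6, Ccl7 and Ccl9) and the dashed macrophage line drop at WT replicate 3, purple lines (Ccl5 and Ccl22) and the dotted mature DC line rise there, and the Ccl17 and Ccl24 lines (orange) are low in all 3 WT libraries. Lines join libraries of 1 genotype to guide the eye and give no order in time.

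Ratios between neighbouring ligand genes in the same library do not depend on library size, and all 4 ratios examined separated the genotypes. How often ratios of other gene pairs do so was not counted, and 24.7% of single genes tested did not overlap. The ratio of Ccl17 to Ccl22 counts was 0.0207, 0.0612 and 0.0402 across WT replicates 1, 2 and 3, whereas the Nfkb2-/- cultures had 0.393, 0.424 and 0.440. Each Nfkb2-/- ratio was above each WT ratio, and the mean log2 ratio differed by 3.50, or 11.3-fold. Ccl3 to Ccl4 went the other way, at 10.5, 9.63 and 9.50 in WT and 7.77, 7.23 and 6.78 in Nfkb2-/- BMDCs, a difference of -0.45 in log2 ratio. This ratio ran from 9.50 to 10.5 among WT libraries, although Ccl3 and Ccl4 differed there by factors of 29.9 and 29.5. The ratio of WT replicate 3 rests on 76 Ccl3 and 8 Ccl4 counts, so a few more Ccl4 counts could bring it into the Nfkb2-/- range.

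The ratio of Ccl2 to Ccl7 was 3.92, 2.21 and 4.55 in WT and 7.17, 6.45 and 7.17 in Nfkb2-/- BMDCs, a log2 difference of 1.02. Its value in WT replicate 3 rests on 50 Ccl2 and 11 Ccl7 counts, so a few fewer Ccl7 counts could bring it into the Nfkb2-/- range. Ccl6 to Ccl9 stood at 2.0, 2.65 and 1.39 in WT and at 4.0, 3.44 and 3.83 in Nfkb2-/- BMDCs, a log2 difference of 0.94. With 3 libraries against 3, the exact two-sided permutation test cannot go below p = 0.1, and each of the 4 ratios gave p = 0.1 (0.1 after Benjamini-Hochberg adjustment over the 4 pairs), so none can pass a threshold of 0.05. Each difference kept its sign in every fit with 1 library left out, with ranges of 3.08 to 3.86, -0.50 to -0.40, 0.71 to 1.23 and 0.70 to 1.17 in the order given here.

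**Figure D4:**
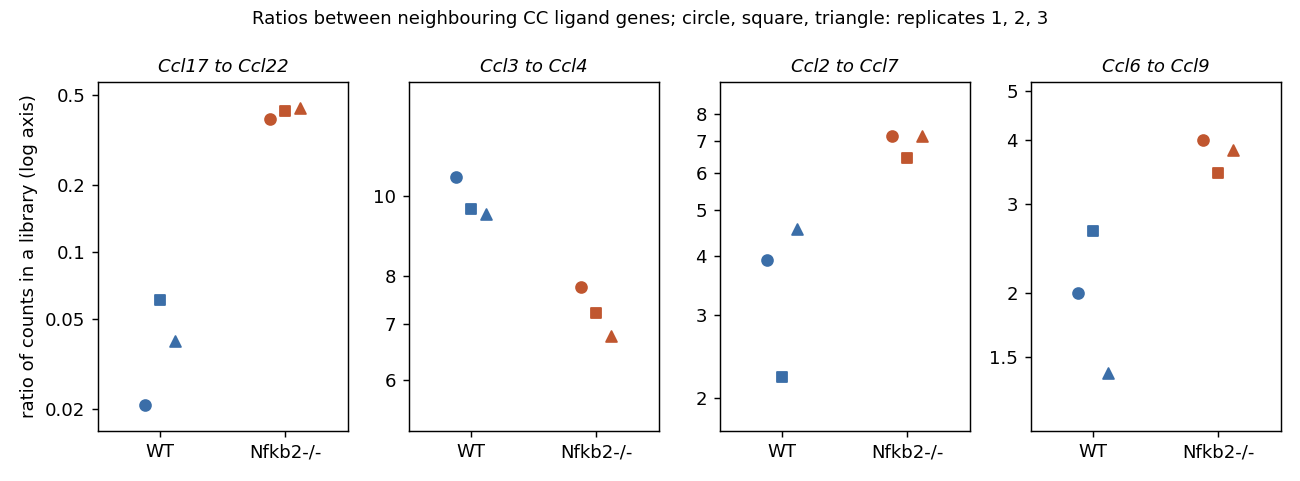
Ratio of the counts of neighbouring CC ligand genes within a library (log axes, each with its own range) for WT (blue) and Nfkb2-/- (orange), with circles, squares and triangles for replicates 1, 2 and 3. In all 4 panels the 3 libraries of a genotype lie apart from those of the other, Ccl17 to Ccl22 by the widest gap, from at most 0.0612 in WT to at least 0.393 in Nfkb2-/- BMDCs. The WT replicate 3 ratios of Ccl3 to Ccl4 and of Ccl2 to Ccl7 rest on 8 Ccl4 and 11 Ccl7 counts.

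Levels of the ligands can be set against each other per kb of exon. In WT BMDCs Ccl22 stood first with a mean of 3493 CPM per kb, followed by Ccl17 (617), Ccl6 (498), Ccl5 (422), Ccl9 (128), Ccl3 (45.1), Ccl2 (10.6), Ccl7 (6.08), Ccl4 (5.33) and Ccl24 (0.854). Of the 9 neighbours in this order, the ranges over the 3 libraries were apart for Ccl22 and Ccl17 and for Ccl5 and Ccl9, and overlapped for the rest. In Nfkb2-/- BMDCs Ccl17 came first with 4671 CPM per kb, followed by Ccl22 (2470), Ccl6 (1458), Ccl9 (231), Ccl5 (147), Ccl3 (74.1), Ccl2 (30.7), Ccl4 (12), Ccl24 (8.96) and Ccl7 (6.33). There the ranges overlapped for Ccl9 and Ccl5, for Ccl4 and Ccl24 and for Ccl24 and Ccl7, and were apart for the other 6 neighbours. Ccl17 and Ccl22 therefore changed places, with Ccl17 above Ccl22 per kb in 3 of 3 Nfkb2-/- libraries and below it in 3 of 3 WT libraries.

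Together the 10 ligands took 0.957%, 0.926% and 1.06% of the counts on named genes in the WT libraries and 1.34%, 1.19% and 1.10% in the Nfkb2-/- libraries. The genotypes did not overlap in this share, and the means differed by 0.228 percentage points (exact two-sided permutation p = 0.1, the smallest that 3 against 3 can give). With TMM normalization the genotypes did overlap. The summed CPM of the 10 ligands was 9675, 8881 and 11989 in WT and 11587, 12292 and 11279 in Nfkb2-/- BMDCs. Within the summed CPM of the 10 ligands, Ccl22 made up 80.3%, 66.2% and 89.3% in WT and 52.3%, 47.3% and 47.4% in Nfkb2-/- BMDCs. Ccl17 went from 1.67%, 4.05% and 3.59% in WT to 20.5%, 20.1% and 20.9% in Nfkb2-/- BMDCs.

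The genes whose log2 CPM followed each ligand most closely over the 6 libraries were looked for among 10640 genes that averaged 5 CPM or more. With 6 points from 2 genotypes such likeness is a description, and the points of a library share its depth and cell composition. Ccl17 was closest to Irf5 (Pearson r = 0.998), which encodes an interferon regulatory factor. Ccl6 was closest to Tmem229b, Ccl9 to Itgb2, the integrin β2 chain of leukocytes, Ccl2 to Il1rl1, the receptor of IL-33, Ccl3 to Klhl6 and Ccl4 to Slfn1. Ccl22 was closest to Nek9, Ccl5 to Mamld1 and Ccl24 to Prkd2. The lowest of these r values was 0.995, for Ccl24. Among the ligands themselves, the closest were Ccl4 for Ccl3 (r = 0.992) and for Ccl2 (r = 0.987), Ccl9 for Ccl6 (r = 0.984), Ccl22 for Ccl5 (r = 0.943) and Ccl24 for Ccl17 (r = 0.938). Ccl2 and Ccl22 ran opposite to each other (r = -0.996). Ccl7 had a mean of 4.87 CPM in WT and 5.07 CPM in Nfkb2-/- BMDCs and fell below the minimum.

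Of 11 other CC ligands, 4 had enough counts to be tested and none was called, with none at an unadjusted p under 0.05 and none in DESeq2 or limma voom. Ccl25, the thymic and gut ligand of Ccr9, was level at 31.1 to 38.4 CPM in WT and 35.4 to 40.2 CPM in Nfkb2-/- libraries. Ccl12, a further ligand of Ccr2, measured 0.308 and 2.86 CPM in WT replicates 1 and 2, had no count in WT replicate 3, and measured 1.53, 1.65 and 1.57 CPM in Nfkb2-/- BMDCs, the same order of WT libraries as Ccl2. Ccl27a, a skin chemokine, lay between 0.687 and 1.68 CPM.

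Of the 14 receptors of CC ligands, 13 were tested and none was called in edgeR, DESeq2 or limma voom, while 5 of the 13 had an unadjusted p under 0.05 in edgeR, against 17.1% of all genes. Ccr7, which takes mature dendritic cells to lymph nodes and binds ligands outside the 10, measured 1148, 638 and 1894 CPM in WT and 672, 610 and 595 CPM in Nfkb2-/- BMDCs (log2 fold change -0.97, SE 0.37, adjusted p = 0.235 in edgeR). Ccr2, the receptor of Ccl2 and Ccl7, measured 435, 836 and 75.1 CPM in WT and 459, 743 and 853 CPM in Nfkb2-/- BMDCs. Ccr1, a receptor of Ccl3, Ccl5, Ccl6 and Ccl9, measured 138, 229 and 21.0 CPM in WT and 114, 218 and 248 CPM in Nfkb2-/- BMDCs. Both had their lowest value in WT replicate 3, as Ccl2, Ccl7, Ccl3, Ccl6 and Ccl9 had, whereas Ccl5 was highest there. Ccr4, the receptor of Ccl17 and Ccl22, lay between 0.329 and 1.39 CPM in all 6 libraries, and was named for that pairing after its values were seen.

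Of 18 IL-4 response genes of myeloid cells none was called, although 5 of the 18 had an unadjusted p under 0.05 in edgeR, against 17.1% of all genes. DESeq2 called 4 of them, against 8.6% of all genes, and limma voom 0. Chil3, a chitinase-like protein of alternatively activated myeloid cells, measured 1150, 1082 and 538 CPM in WT and 2185, 3067 and 2261 CPM in Nfkb2-/- BMDCs, without overlap (log2 fold change 1.44, SE 0.32, adjusted p = 0.0879 in edgeR). Mgl2, a C-type lectin, measured 132, 298 and 37.6 CPM in WT and 598, 693 and 702 CPM in Nfkb2-/- BMDCs (log2 fold change 2.09, SE 0.64, adjusted p = 0.162 in edgeR). Irf4, a transcription factor downstream of IL-4 and of NF-kB, measured 807, 709 and 1336 CPM in WT and 1018, 1098 and 1019 CPM in Nfkb2-/- BMDCs, with overlap (log2 fold change 0.14, adjusted p = 0.825 in edgeR). The list had 13 estimates above 0 and 5 below, with a median of 0.41. The genotypes did not overlap for 8 of the 18, against 24.7% of all genes tested. Of these, 5 were higher in Nfkb2-/- BMDCs, Chil3 and Mgl2 among them, and 3 were lower. The lower ones included the receptor gene Il4ra (log2 fold change -0.47) and Stat6 (-0.45), which were named after their values were seen.

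Of 18 canonical NF-kB response genes none was called, with 7 of the 18 at an unadjusted p under 0.05 in edgeR, against 17.1% of all genes. DESeq2 called 5 of them, against 8.6% of all genes, and limma voom 0. Their median log2 fold change was -0.19, with 8 estimates above 0 and 10 below. Rel, which encodes c-Rel, had 2086, 1717 and 2390 CPM in WT and 1464, 1424 and 1343 CPM in Nfkb2-/- BMDCs (log2 fold change -0.55, adjusted p = 0.203 in edgeR). Nfkbia, the inhibitor IκBα, had 279, 264 and 501 CPM in WT and 172, 175 and 172 CPM in Nfkb2-/- BMDCs (log2 fold change -1.01, adjusted p = 0.117 in edgeR). Birc3, an inhibitor of apoptosis, had 280, 189 and 384 CPM in WT and 205, 203 and 212 CPM in Nfkb2-/- BMDCs (adjusted p = 0.411 in edgeR). The genotypes did not overlap for 6 of the 18, against 24.7% of all genes tested. Of these, 4 were lower in Nfkb2-/- BMDCs, Rel and Nfkbia among them, and 2 were higher, Tnf (log2 fold change 1.91) and Cxcl10 (1.64), which were named after their values were seen.

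**Figure D5:**
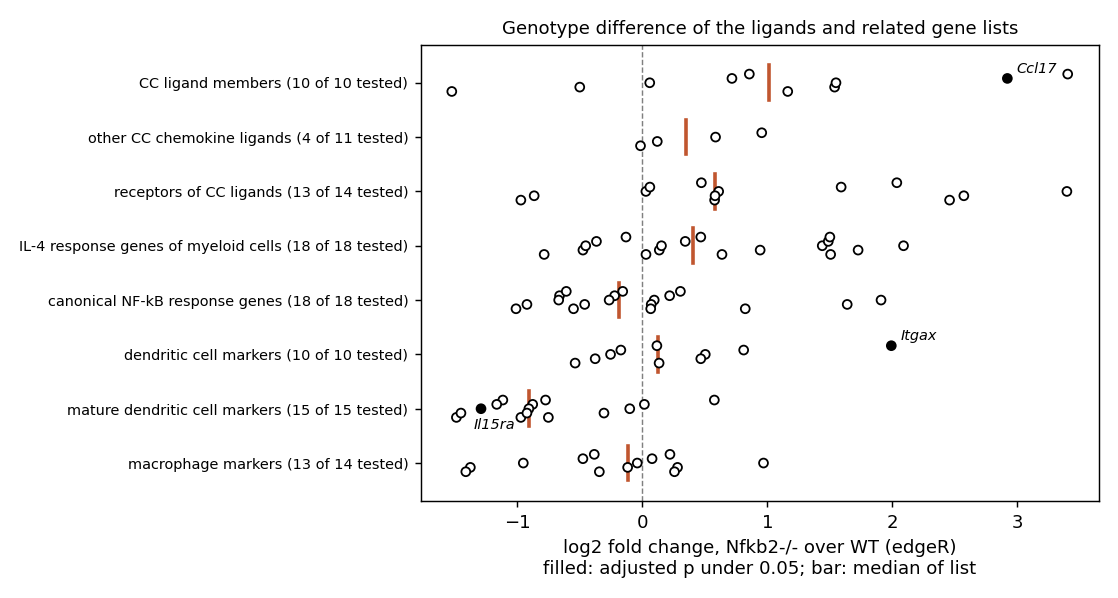
Log2 fold change, Nfkb2-/- over WT, of each tested gene (circles, edgeR) in the 10 CC ligands and in lists of other ligands, receptors, IL-4 and NF-kB response genes and cell markers, with filled circles at an adjusted p under 0.05 and bars at the list median. The 10 ligands have a median of 1.01 and mature dendritic cell markers one of -0.91, and the filled circles are Ccl17, Itgax and Il15ra.

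Dendritic cell markers were present in all libraries. Cd74, the invariant chain of MHC class II, measured 2449, 1867 and 3685 CPM in WT and 2900, 2743 and 3031 CPM in Nfkb2-/- BMDCs. Itgax, which encodes CD11c, rose from 160, 276 and 123 CPM in WT to 744, 767 and 715 CPM in Nfkb2-/- BMDCs (log2 fold change 1.99, SE 0.30, adjusted p = 0.0414 in edgeR). This was the same direction as Ccl17, and Itgax was the 1 of 10 dendritic cell markers called, against 1.14% of all genes. The 10 markers were mixed, with 6 estimates above 0, 4 below and a median of 0.13. Their genotypes did not overlap for 3 on the higher and 1 on the lower side, against 24.7% of all genes. Il15ra fell in the mature list (log2 fold change -1.29, SE 0.20, adjusted p = 0.0419 in edgeR). The mast cell protease gene Cpa3 fell from 10.8, 6.30 and 6.84 CPM to 1.86, 2.34 and 2.48 CPM (log2 fold change -1.84, SE 0.28, adjusted p = 0.0413 in edgeR). Cpa3 was the 1 of 7 tested mast cell and basophil markers called, against 1.14% of all genes. These 7 were mixed, with 3 estimates above 0 and 4 below. Their genotypes did not overlap for 2 on the higher and 3 on the lower side, against 24.7% of all genes. Eosinophil markers, of interest beside Ccl24, summed to 21.9, 69.4 and 10.7 CPM in WT and 87.4 to 105 CPM in Nfkb2-/- BMDCs, with none of 6 called and 3 of 6 at an unadjusted p under 0.05 in edgeR, against 17.1% of all genes. The highest of them, Siglecf, supplied most of these sums, at 15.7, 48.2 and 6.12 CPM in WT and 66.2, 83.8 and 76.6 CPM in Nfkb2-/- BMDCs. All 6 eosinophil estimates were above 0, and the genotypes did not overlap for 2 of the 6, against 24.7% of all genes. The summed monocyte list ran from 730 to 1999 CPM in WT and from 2772 to 4002 CPM in Nfkb2-/- BMDCs. Chil3, also on the IL-4 list, supplied 538 to 1150 CPM of the WT sums and 2185 to 3067 CPM of the Nfkb2-/- sums. Of the 7 monocyte markers none was called and 2 did not overlap, against 24.7% of all genes, and Ccr2 overlapped. The neutrophil list, led by S100a8, summed to 87.2 to 247 CPM in WT and 122 to 130 CPM in Nfkb2-/- BMDCs. Of its 9 tested markers 8 had estimates below 0 and 1 above, with a median of -0.78. None of the 9 was called and all overlapped, while 4 had an unadjusted p under 0.05 in edgeR, against 17.1% of all genes. Mast cell and basophil markers, with Kit as the highest, summed to 46.8 to 58.2 CPM in all libraries, lymphocyte markers, with Trac as the highest, to 0.616 to 6.11 CPM, and erythroid markers, with Alas2 as the highest, to 3.92 to 5.72 CPM. The part of any of these lists in the ligand differences was not tested.

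Sequence overlap touched few of the ligands. Stretches of 50 bases shared exactly with the transcripts of another gene were found in 1 of the 10, Ccl9, at 1.97% of its stretches. Ccl2 lies antisense to Gm17268, which had 0 to 4 counts per library, and Ccl6 to E230016K23Rik, which had 54 to 1664. Whether strand was used in counting is not given in the sources used here, so reads of these pairs cannot be told apart.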

How the data were processed

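RNA-seq was performed on unstimulated BMDCs, 3 WT and 3 Nfkb2-/- libraries, grouped by the sample labels. The authors deposited raw read counts per Ensembl gene and library, and per the submitters' processing notes mapped with HISAT2 to GRCm38 (mm10). The counting tool, annotation and use of strand are not given in the sources used here. The study's filter was followed, so that named genes whose counts summed to at least 50 were tested. Names came from GENCODE M21, which named 52073 of the 56748 IDs, and the others, with 1.01% to 1.75% of a library's counts, stayed out.

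Counts were normalized by TMM and tested with edgeR 4.0.16 in R 4.3.3 (glmQLFit and glmQLFTest, no covariates, common dispersion 0.219) with Benjamini-Hochberg adjustment over all genes tested. The SE is the log2 fold change divided by the root of F. Ratios and shares were compared by exact permutation tests (SciPy 1.17.1). Alternatives were DESeq2 1.42.0, limma 3.58.1 (voom), other scalings and filters, a replicate block and left-out libraries. The test was checked on simulated counts. Library totals were the depth, and 1 count equalled 0.0180 to 0.0335 CPM before TMM.

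The members and lists were chosen with earlier results of these data known. Named were all members, called genes of each list, the 3 most abundant genes per kb of each pathway list and the 1 of each marker list, and the closest gene and member of each ligand. Genes outside this rule are marked where they appear.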

Additional observations from a re-analysis of the deposited data

How the results depend on the processing

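The replicate numbers were not treated as pairs. Deviations of same-numbered libraries from their genotype means correlated at 0.262, 0.148 and 0.0224 for numbers 1, 2 and 3, so not all passed 0.1, and Nfkb2-/- replicate 3 correlated better with WT replicate 2 (0.164) than with its own number. With a replicate block, edgeR called 0 genes of all tested (3332 at an unadjusted p under 0.05), 0 of the 10 ligands (5 at an unadjusted p under 0.05) and 0 markers (25), and Ccl17 stood at 3.03 (adjusted p = 0.0594). Every call of the main fit was thus lost, those of Nfkb2, Itgax, Il15ra and Cpa3 among them, and no gene was newly called.

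The number of ligands called was 1, and 3 with DESeq2 (Ccl17, Ccl24 and Ccl5), 2 with filterByExpr or with at least 10 counts in every library (Ccl17 and Ccl24 in both, Ccl4 not being tested in the latter), 6 with no filter beyond 1 count, 2 at an adjusted p under 0.1, and 0 to 3 with 1 library left out. Over all genes the call count of 248 became 1878 with DESeq2, 488 with limma voom, 397 with filterByExpr, 1625 with no filter, 459 with at least 10 counts, 808 at an adjusted p under 0.1 and 0 to 1076 with 1 library left out. It was 0 without WT replicate 1 or without any 1 of the Nfkb2-/- libraries, with 2325 to 4088 genes at an unadjusted p under 0.05 in those fits, and 1076 without WT replicate 2. With WT replicate 3 and Nfkb2-/- replicate 1 both left out, which was chosen after seeing the data, 908 genes and 3 ligands were called. The cause of these shifts was not tested.

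Receptors went from 0 called to 2 with no filter and 0 to 2 with 1 library left out. IL-4 response genes went from 0 to 4 with DESeq2, 5 with no filter, 2 with both libraries left out and 0 to 4 with 1 left out. Canonical NF-kB response genes went from 0 to 5, 4, 2 and 0 to 4 under the same alternatives. Markers went from 3 called to 17, 20, 16 and 0 to 12. Ccl7 changed sign without WT replicate 1 (-0.35), WT replicate 3 (-0.47), Nfkb2-/- replicate 2 (-0.05) or Nfkb2-/- replicate 3 (-0.06) and with both libraries left out (-0.29), and ranged from -0.47 to 2.23 with 1 library left out. The other 9 ligands kept their direction in all fits that held them, and the 4 ratios and the summed share in all of theirs. The lowest counts behind a ligand value were 8 for Ccl4 and 11 for Ccl7, both in WT replicate 3.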

Other observations

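The total counts of WT replicate 2 (31622131) and Nfkb2-/- replicate 2 (31622146) differed by 15 counts, while the next closest pair of libraries differed by 1588950. The libraries themselves were not alike, since 1116 of the 32649 gene IDs with a count in either had the same count in both, against 619 to 1293 for the other pairs.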
